A study of Mus musculus with 4 samples.

Results

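NRF2 target genes and mitochondrial antioxidant genes were examined in the 4T1 line, derived from a mammary tumor of the mouse and used as a model of metastatic breast cancer. The 10 genes were chosen by name, and all 10 of them were among the 20197 genes of the normalized table. Cells of the wild-type line were stained with MitoSpy Red at 20 nM, a dye that accumulates in mitochondria according to their membrane potential (MMP), and the 5% with most dye (high MMP) and the 5% with least dye (low MMP) were sorted. RNA-sequencing covered 2 high MMP and 2 low MMP libraries, each from 100000 cells. All 4 libraries therefore come from stained and sorted cells of 1 cell line, and no unstained or unsorted culture is compared here. The study counts the samples of a group as independent experiments. The main comparison does not pair libraries, and the numbers 1 and 2 in the titles serve as names. Same-numbered pairs appear only where stated, since the labels do not say which libraries share an experiment. The p-values therefore measure only the spread between these libraries, part of which may be technical. In bulk RNA, fewer cells that express a gene and less RNA per cell cannot be told apart.

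NRF2, encoded by *Nfe2l2*, is a transcription factor that the adaptor KEAP1 marks for degradation in unstressed cells. Oxidants and electrophiles modify cysteines of KEAP1, NRF2 accumulates, pairs with a small MAF protein and binds antioxidant response elements near genes for glutathione synthesis, thioredoxin reduction and heme breakdown. In the mitochondrial matrix, SOD2 converts superoxide from the respiratory chain to hydrogen peroxide, which PRDX3 reduces. In tumors, NRF2 activity is known for protecting cells from oxidative stress.

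The promoters in RefSeq (GRCm38.p6, 250 bases before to 50 bases after each start) were searched on both strands for the core of the antioxidant response element, TGACNNNGC and for the related TGANTCA, and the same bases can count for both. Of the 10 genes, 8 were matched, and *Hmox1* and *Gclc* were not. TGACNNNGC was found in 4 of their 10 windows, those of *Nfe2l2*, *Gclm*, *Txnrd1* and *Srxn1*, and in 12.4% of all 32851 windows. TGANTCA was found in 1 of the 10 windows, that of *Srxn1*, and in 7.81% of all windows. A match is a description of letters and does not show binding. Sequence outside these windows was not searched, so a gene without a match may still have an element elsewhere. The stretches with matches upstream of the start are shown because they differ in arrangement among genes of 1 pathway. *Maff*, which encodes a small MAF partner of NRF2, is added as the regulator of smallest raw p below. Capitals mark the matches, and each stretch is 120 bases, 5′ to 3′ on the strand of its gene.
Nfe2l2 promoter, chr2:75704794-75704913, minus strand: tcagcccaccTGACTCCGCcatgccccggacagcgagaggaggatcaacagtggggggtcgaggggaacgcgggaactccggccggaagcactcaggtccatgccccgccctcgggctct
Gclm promoter, chr3:122245357-122245476, plus strand: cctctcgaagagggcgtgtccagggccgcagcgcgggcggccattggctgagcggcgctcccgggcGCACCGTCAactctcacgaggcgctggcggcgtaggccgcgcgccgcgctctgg
Txnrd1 promoter, chr10:82859056-82859175, plus strand: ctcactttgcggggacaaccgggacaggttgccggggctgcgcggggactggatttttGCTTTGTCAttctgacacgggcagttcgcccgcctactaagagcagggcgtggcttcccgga
Srxn1 promoter, chr2:152105384-152105503, plus strand: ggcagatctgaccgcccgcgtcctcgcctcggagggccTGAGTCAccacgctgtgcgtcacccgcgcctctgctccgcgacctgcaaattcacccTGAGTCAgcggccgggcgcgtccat
Maff promoter, chr15:79346451-79346570, plus strand: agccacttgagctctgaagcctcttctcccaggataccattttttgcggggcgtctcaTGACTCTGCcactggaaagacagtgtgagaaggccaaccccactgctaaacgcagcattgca

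The match lay 240 bases before the start in *Nfe2l2*, 134 in *Gclm*, 92 in *Txnrd1* and 112 in *Maff*. In *Gclm* and *Txnrd1* it was on the opposite strand, so the capitals show its reverse complement. *Srxn1* held TGAGTCA 102 and 45 bases before its start, and its TGACNNNGC match was 28 bases after it. *Txnrd1* had 3 windows, of which the one shown was the only one with a match.

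The libraries held 22591970 to 26395015 reads assigned to genes. Values are normalized reads, scaled so that each library sums to 20000000, and differences are high minus low MMP on the scale of log2(value + 1) unless stated. Epithelial markers of the line were abundant, with *Epcam*, *Krt8*, *Krt18*, *Krt19*, *Cldn4* and *Cdh1* summing to 41464 to 54232 normalized reads. Of 8 markers of immune, endothelial and fibroblast cells, *Cd3e* and *Lum* were not in the table, and the other 6 summed to 81.8 and 154 in high MMP 1 and 2, against 163 and 114 in low MMP 1 and 2. *Cd68*, a lysosomal marker of macrophages, made up most of that sum, and the leukocyte gene *Ptprc* was at 0 to 1.77. Transcripts of mitochondrial DNA that encode proteins took 1.265% of the reads in high MMP 1 and 2.02% to 2.24% in the other libraries.

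None of the 10 genes differed between high and low MMP cells at an adjusted p under 0.05 in limma, where 0% of the 20197 genes did. None had an unadjusted p under 0.05 either, against 9.96% of all genes. On whole reads, edgeR's quasi-likelihood test called 0 of the 10, with 1 at an unadjusted p under 0.05 (*Txnrd1*), and called 0% of all genes, with 7.05% at an unadjusted p under 0.05. DESeq2 called 0 of the 10, with 2 at an unadjusted p under 0.05 (*Hmox1* and *Nqo1*), where 3.27% of all genes were, and called 0.954% of the 12365 genes it adjusted. All 10 were well measured, with 115 to 9083 reads per library, and all 10 had a mean of at least 1. For 3 of the 10, *Hmox1*, *Nqo1* and *Txnrd1*, both high MMP libraries lay above both low MMP libraries, as for 13.8% of the 17694 genes whose mean reached 1. For 0 of the 10 both lay below, against 24.3% of those genes. With 2 libraries against 2, a two-sided exact permutation test of 1 gene cannot go below p = 0.333.

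**Figure D1:**
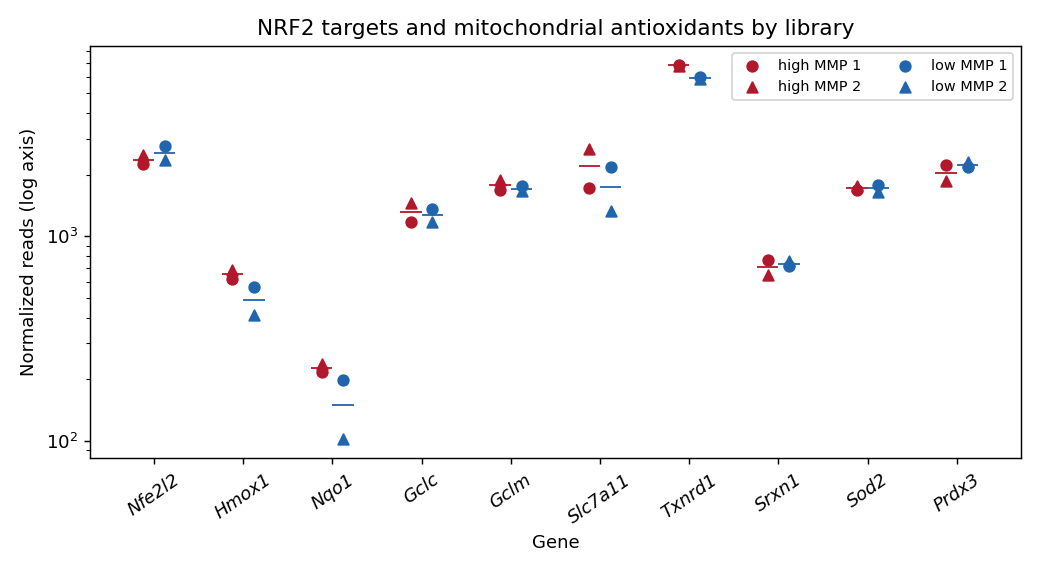
Normalized reads (log axis) of the 10 genes in the high MMP (red) and low MMP (blue) libraries, with circles for replicate 1, triangles for replicate 2 and a line at the mean of each group. The red symbols lie above both blue ones for *Hmox1*, *Nqo1* and *Txnrd1*, and the groups overlap for the other 7 genes.

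Among the regulators, *Nfe2l2* itself (chromosome 2, 75675513 to 75704641, GRCm38) did not separate the groups. It had 2245 and 2485 normalized reads in high MMP 1 and 2, and 2755 and 2360 in low MMP 1 and 2. Low MMP 1 was highest and high MMP 1 lowest, so the groups overlapped. The means were 2365 ± 169 and 2557 ± 279 (SD, n = 2 each), a difference of -0.11 (SE 0.12, 95% interval -0.43 to 0.21, limma adjusted p = 0.855).

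The RNA for its repressor and partners was also measured, from a list of 12 regulators that were all in the table. By limma 0 of the 12 were called, while 2 had an unadjusted p under 0.05, both higher in high MMP cells, where 3.95% of all genes were. These were *Maff*, at 688 and 672 in high MMP and 531 and 549.8 in low MMP libraries, and *Gsk3b*, a kinase that primes NRF2 for KEAP1-independent degradation, at 1781 and 1859 against 1606 and 1418. The difference of *Maff* was 0.33 (SE 0.08, limma adjusted p = 0.472) and that of *Gsk3b* 0.27 (SE 0.10, adjusted p = 0.491). *Cul3*, the ubiquitin ligase scaffold that KEAP1 recruits, differed by 0.11 (SE 0.08). *Keap1* lay lower in both high MMP libraries, 1378 and 1312 against 1387 and 1524, with high MMP 1 and low MMP 1 almost equal and a difference of -0.11 (SE 0.09). *Bach1*, a repressor that competes with NRF2 for its elements, differed by 0.10 (SE 0.08) and *Mafg*, another small MAF gene, by -0.07 (SE 0.12). The median of the list was 0.03, beside -0.04 for all genes.

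The largest differences among the 10 genes were those of *Nqo1* and *Hmox1*. *Nqo1* (chromosome 8, 107388225 to 107403206) encodes a quinone reductase that spares the cell from semiquinone radicals. It had 217 and 237 normalized reads in high MMP 1 and 2, against 199.6 and 102 in low MMP 1 and 2. Both high MMP values were above both low values, but low MMP 1 was close to them and low MMP 2 was far below. The means of 227 ± 13.7 and 151 ± 69.2 (SD, n = 2 each) gave a ratio of 1.51 and a log2 difference of 0.67 (SE 0.35, 95% interval -0.29 to 1.62, limma adjusted p = 0.668). Without low MMP 2 the difference was 0.18, and without low MMP 1 it was 1.15, so the size of the difference rested on low MMP 2.

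*Hmox1* (chromosome 8, 75093621 to 75100589) encodes heme oxygenase 1, which breaks heme down to biliverdin, iron and carbon monoxide. High MMP 1 and 2 had 618 and 683 normalized reads of it, and low MMP 1 and 2 had 567 and 412. The order of the libraries was that of *Nqo1*, with high MMP 2 highest and low MMP 2 lowest. The means were 651 ± 45.6 and 489 ± 109.6 (SD, n = 2 each), a ratio of 1.33 and a difference of 0.43 (SE 0.18, 95% interval -0.07 to 0.93, limma adjusted p = 0.574). Without low MMP 2 it was 0.20, and without low MMP 1 it was 0.66.

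Genes of heme and iron handling were read from a list of 12, all of which were in the table. None was called by limma, and 1, *Tfrc*, had an unadjusted p under 0.05 as lower in high MMP cells, where 6.01% of all genes were. *Tfrc*, the transferrin receptor for iron uptake, had 8680.4 and 9721 normalized reads in high MMP and 11564 and 11686 in low MMP libraries, a difference of -0.34 (SE 0.11, limma adjusted p = 0.472). *Fth1*, the heavy chain of the iron store ferritin, had 35855 and 28098 against 25364 and 23687, a difference of 0.37 (SE 0.18, adjusted p = 0.615). The ferritin light chain *Ftl1* had 20243 and 17779 against 16911 and 16731, a difference of 0.17 (SE 0.12). High MMP 1 was the highest library for both ferritin genes, and both have processed pseudogenes, so that their counts are uncertain. *Slc40a1*, the iron exporter, was higher in both high MMP libraries on 63 and 45 reads against 26 and 41 (0.55, SE 0.33). Of the 12 genes, 5 lay above and 2 below in both high MMP libraries, where 13.8% and 24.3% of all genes did, and the median difference was 0.04.

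*Txnrd1* (chromosome 10, 82833951 to 82897712) had the smallest spread between replicates relative to its difference. It encodes the cytosolic thioredoxin reductase, a selenoprotein that keeps thioredoxin reduced. It had 6882 and 6773 normalized reads in high MMP 1 and 2, and 5989.9 and 5861 in low MMP 1 and 2. The 2 libraries of each group were close to each other, and the groups were apart. The means were 6828 ± 77.1 and 5926 ± 90.9 (SD, n = 2 each), a ratio of 1.15 and a difference of 0.20 (SE 0.08, 95% interval -0.02 to 0.43, limma adjusted p = 0.549). It was 0.20 in the first same-numbered pair and 0.21 in the second, and 0.19 to 0.22 when any 1 library was left out. The protein-coding gene *Eid3* overlaps *Txnrd1* on the same strand and had 12.1 to 53.6 normalized reads. How reads of the shared stretch were assigned is not given, and their part in the difference was not tested.

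*Srxn1* (chromosome 2, 152105516 to 152111376) encodes sulfiredoxin, which repairs overoxidized peroxiredoxins, PRDX3 among them. Its normalized reads were 766 and 650.2 in high MMP 1 and 2, against 716 and 754 in low MMP 1 and 2. High MMP 1 was highest and high MMP 2 lowest, with both low MMP libraries between them. The means were 708 ± 81.9 and 735 ± 27.2 (SD, n = 2 each), a difference of -0.06 (SE 0.11, 95% interval -0.37 to 0.25, limma adjusted p = 0.948).

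The genes for glutathione synthesis gave no separation of the groups. *Gclc* (chromosome 9, 77754535 to 77794485) and *Gclm* (chromosome 3, 122245557 to 122270732) encode the catalytic and modifier subunits of glutamate-cysteine ligase, the rate-limiting enzyme. *Gclc* had 1169 and 1454 normalized reads in high MMP 1 and 2 and 1359 and 1172 in low MMP 1 and 2. *Gclm* had 1674 and 1886 in high MMP and 1751 and 1658 in low MMP libraries. For both subunits high MMP 2 was highest and low MMP 1 second. The means were 1312 ± 202 and 1266 ± 132 for *Gclc* and 1780.0 ± 150.2 and 1705 ± 65.9 for *Gclm* (SD, n = 2 each). The difference was 0.05 for *Gclc* (SE 0.15, 95% interval -0.36 to 0.45, limma adjusted p = 0.974) and 0.06 for *Gclm* (SE 0.10, 95% interval -0.20 to 0.32, limma adjusted p = 0.925). The pseudogene *Gm6061*, at 1.74 to 9.21 normalized reads, overlaps *Gclm* on its strand, and *Gm17494*, at 155 to 232, on the opposite strand. Whether counting used the strand is not stated, so reads of these genes may have been shared.

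*Slc7a11* (chromosome 3, 49892526 to 50443614) encodes the cystine importer xCT, which supplies cysteine for glutathione and is a target of ATF4 as well as NRF2. It had 1712 and 2669 normalized reads in high MMP 1 and 2, and 2168 and 1324 in low MMP 1 and 2. The libraries of each group lay far apart, and the difference was -0.34 for high MMP 1 minus low MMP 1 and 1.01 for high MMP 2 minus low MMP 2, but 0.37 for high MMP 1 minus low MMP 2 and 0.30 for high MMP 2 minus low MMP 1. The means of 2191 ± 676 and 1746 ± 597 (SD, n = 2 each) differed by 0.34 (SE 0.34, 95% interval -0.58 to 1.25, limma adjusted p = 0.845), and by -0.02 without low MMP 2. *Slc3a2*, the partner subunit of xCT, also had its 2 highest values in high MMP 2 (7039) and low MMP 1 (6646), with 4782 in high MMP 1 and 5196 in low MMP 2. Its difference was -0.02 (SE 0.24).

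Of 15 further genes of glutathione supply and use, all in the table, 0 were called by limma and 1, *Ggct*, had an unadjusted p under 0.05, as higher in high MMP cells, where 3.95% of all genes were. *Ggct*, an enzyme of glutathione turnover, had 271 and 228 normalized reads in high MMP and 167 and 199.2 in low MMP libraries, a difference of 0.45 (SE 0.16, limma adjusted p = 0.495). *Chac1*, which cleaves glutathione, had 1942 and 1609 against 1459 and 1351, a difference of 0.33 (SE 0.12, adjusted p = 0.505). *Esd*, which hydrolyses S-formylglutathione, differed by 0.20 (SE 0.12). The glutathione reductase gene *Gsr* differed by -0.08 (SE 0.16) and the glutathione-dependent lipid peroxidase gene *Gpx4*, whose processed pseudogene makes its count uncertain, by 0.01 (SE 0.10). The median of the list was 0.02.

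**Figure D2:**
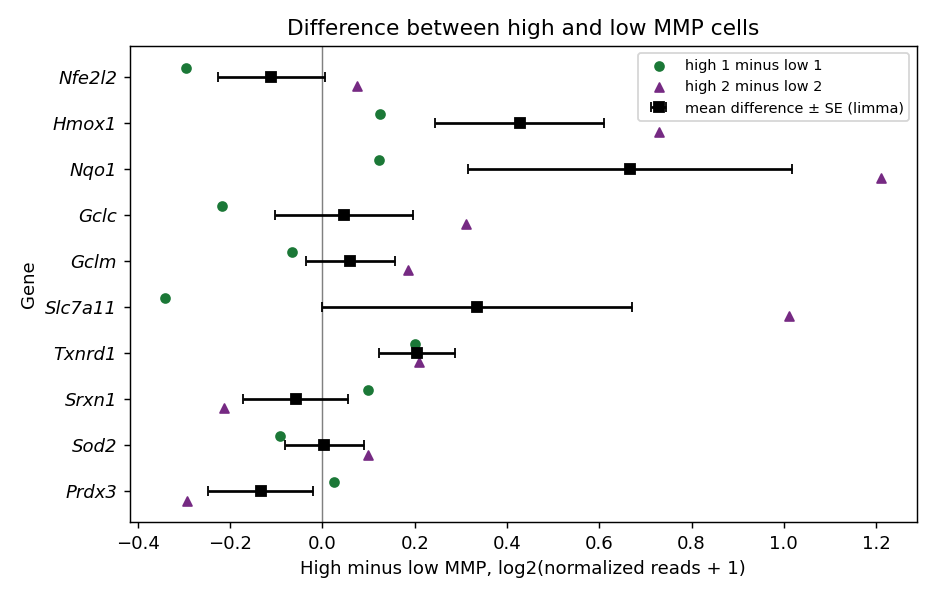
High minus low MMP difference of the 10 genes on the log2(normalized reads + 1) scale, as the mean with its SE from limma (black squares) and in the same-numbered pairs (green circles for pair 1, purple triangles for pair 2). The pairs share a direction for 3 genes, *Hmox1*, *Nqo1* and *Txnrd1*, as any pairing must where the groups do not overlap. They go opposite ways for the other 7. The pairs follow the numbers in the titles, which do not show that 2 libraries share an experiment.

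The mitochondrial enzymes did not separate the groups either. *Sod2* (chromosome 17, 13006846 to 13040063), for manganese superoxide dismutase, had 1678 and 1755 normalized reads in high MMP and 1788 and 1638 in low MMP libraries. The 4 libraries were within 1.09-fold of each other, the narrowest range of the 10 genes. The means of 1717 ± 54.1 and 1713 ± 106 (SD, n = 2 each) differed by 0.00 (SE 0.09, 95% interval -0.23 to 0.24, limma adjusted p = 0.994).

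*Prdx3* (chromosome 19, 60864051 to 60874556), for the peroxiredoxin of the matrix, had 2222 and 1871 normalized reads in high MMP and 2183 and 2292 in low MMP libraries. High MMP 2 was the lowest library and the other 3 were close together. The means of 2046 ± 248 and 2237 ± 77.1 (SD, n = 2 each) differed by -0.13 (SE 0.11, 95% interval -0.44 to 0.18, limma adjusted p = 0.803).

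A list of 14 other antioxidant genes with products in mitochondria held 0 called by limma, where 0% of all genes were. It held 0 at an unadjusted p under 0.05 in limma, edgeR or DESeq2, where 9.96%, 7.05% and 3.27% of all genes were. *Prdx5*, a peroxiredoxin found in mitochondria and elsewhere, had 2977 and 2299 normalized reads in high MMP and 2098 and 2273 in low MMP libraries, a difference of 0.26 (SE 0.15, limma adjusted p = 0.696). *Glrx2*, a glutaredoxin, differed by -0.14 (SE 0.09) and *Slc25a39*, which brings glutathione into the matrix, by -0.07. The thioredoxin system of the matrix, which reduces PRDX3, differed by 0.10 for *Txn2* (SE 0.13) and 0.04 for *Txnrd2* (SE 0.11). *Nnt*, the transhydrogenase that makes NADPH in the matrix, had only 12 to 18 reads per library, so a difference would have to be large to be detectable at this depth. It was named after its values were seen. The median of the list was 0.02, with 0.25 in the first same-numbered pair and -0.13 in the second. High MMP 2 and low MMP 1 were both below the other libraries for 9 of the 14 and both above for 0. Of all genes whose mean reached 1, 21.7% and 20.2% were, a split taken up below.

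Per kilobase of merged exon, averaged over the 4 libraries, *Prdx3* had the highest level of the 10 genes, at 1449 normalized reads per kilobase (1266 to 1551 over libraries). *Txnrd1* followed at 899.9 (827 to 971), then *Nfe2l2* at 648 (591 to 726). These 3 did not overlap with each other or with the rest. *Gclc* (342) and *Hmox1* (325) overlapped, as did *Hmox1* with *Gclm* (277) and *Gclm* with *Srxn1* (256). *Sod2* (171), *Slc7a11* (141) and *Nqo1* (122) were lowest, and each overlapped its neighbour in this order except that *Sod2* stood clear of *Srxn1*. Merged exons include parts that a given transcript may lack, and the models of *Slc7a11* (13922 bases) and *Sod2* (10008 bases) were the longest, so the order is one of levels over these models and not over the transcripts in use.

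Across libraries the 10 genes fell into a small set of patterns. The highest library was 2.33-fold the lowest for *Nqo1*, 2.02-fold for *Slc7a11* and 1.66-fold for *Hmox1*, and 1.09-fold to 1.24-fold for the other 7. Low MMP 2 was the lowest library for all 3 of these more variable genes. For 7 of the 10 genes, high MMP 2 and low MMP 1 were both above or both below high MMP 1 and low MMP 2, against 41.9% of all genes whose mean reached 1. They were above for 5 (*Nfe2l2*, *Gclc*, *Gclm*, *Slc7a11* and *Sod2*), against 20.2% of those genes, and below for *Srxn1* and *Prdx3*, against 21.7%. This split follows neither the sort nor the numbers in the titles. Same-numbered libraries deviated in opposite directions more strongly among abundant genes. Their correlation was -0.19 at a mean of at least 1, -0.42 at 10 and -0.57 at 100. All 10 genes have means above 100, the lowest being 189 (*Nqo1*). The shares of all genes may therefore be too low a base for them, and shares among abundant genes were not computed. *Cd68* was also higher in high MMP 2 and low MMP 1 (139 and 149, against 59.9 and 91.2), while the other 5 markers of other cell types summed to less there (15.1 and 13.9, against 22.0 and 23.0), and the summed epithelial markers were lower there (41464 and 46571, against 54232 and 53509). Of the 6 epithelial markers 4 followed this split, with *Krt8* and *Krt18* making up most of the sum, while *Cldn4* and *Cdh1* did not. The 5 other-cell markers had at most 12 reads per gene and library. Of these, *Ptprc*, *Cdh5* and *Pdgfrb* did not follow the split, and *Ptprc* and *Cdh5* were at 0 in low MMP 1. The part of these markers in the split was not tested.

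**Figure D3:**
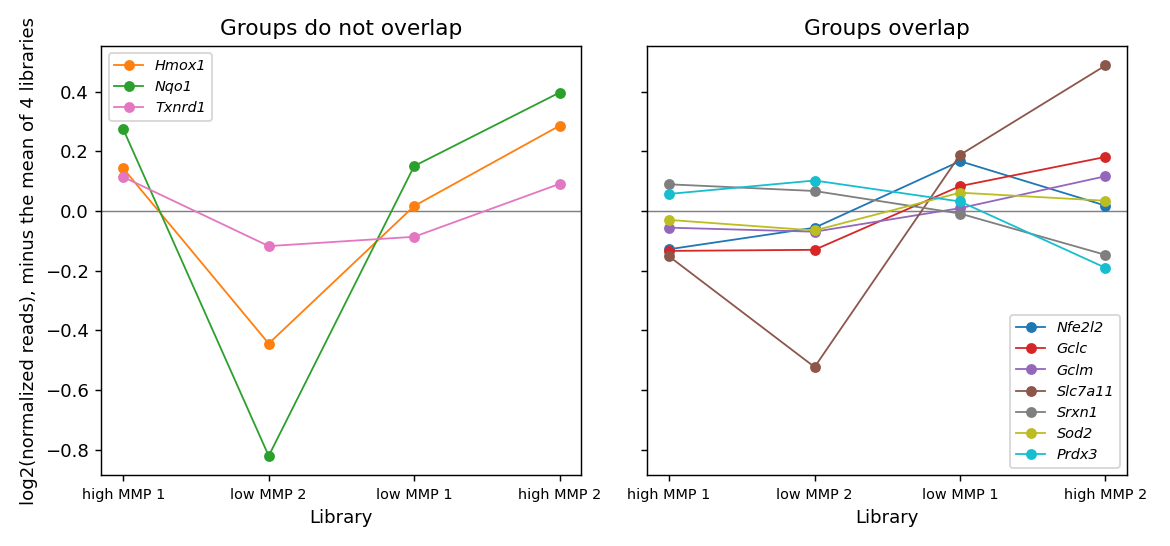
Level of each gene in each library as log2(normalized reads) minus the mean of its 4 libraries, for *Hmox1*, *Nqo1* and *Txnrd1* (left) and the other 7 genes (right), with the libraries ordered as high MMP 1, low MMP 2, low MMP 1 and high MMP 2 and lines only joining the points of a gene. On the right, low MMP 1 and high MMP 2 are both above or both below high MMP 1 and low MMP 2 for each of the 7 genes. A gene whose groups do not overlap cannot show this split, so only genes of the right panel could. The share among all genes with overlapping groups was not computed.

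Of 35 other targets of NRF2, 33 were in the table and 31 had a mean of at least 1. By limma 0 were called, with 3 higher and 1 lower in high MMP cells at an unadjusted p under 0.05, where 3.95% and 6.01% of all genes were. *Gsta2* was above 0 only in the high MMP libraries, at 3 and 1 reads. A gene had to be found in 2 libraries to be in the table, so *Gsta2* passed that filter only through the group where it was higher. Its mean was under 1, so 2 higher genes remain among the 31 with a mean of at least 1. These are *Gsta1*, with 14 and 7 reads against 2 and 4, named after its values were seen, and *Aldh3a1*, an aldehyde dehydrogenase, with 174 and 112 normalized reads in high MMP and 71.5 and 82.3 in low MMP libraries. Its difference was 0.86 (SE 0.26, limma adjusted p = 0.472). The lower gene was *Abcc3*, an efflux transporter of conjugates, with 263 and 284 against 394 and 367, a difference of -0.48 (SE 0.10, limma adjusted p = 0.472). *Gsta4*, a glutathione transferase for lipid aldehydes, had 271 and 162 against 108 and 141, a difference of 0.76 (SE 0.31, adjusted p = 0.546). The median of the list was 0.03, and both high MMP libraries lay above both low MMP libraries for 7 of the 31 and below for 1, against 13.8% and 24.3% of all genes.

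The difference of these other targets depended on which libraries were set against each other. The median over the 31 genes was 0.25 in the first same-numbered pair and -0.13 in the second. For 20 of the 31, high MMP 2 and low MMP 1 were on 1 side of the other libraries, below them for 16, against 41.9% and 21.7% of all genes. As above, these shares may be too low a base for abundant genes. Abundant redox proteins were among them, *Prdx1*, a cytosolic peroxiredoxin, with 17127 and 12198 normalized reads in high MMP and 12354 and 13870 in low MMP libraries, and *Txn1*, the cytosolic thioredoxin, with 10932 and 7822 against 8230 and 9304. The groups overlapped for both, with a difference of 0.14 (SE 0.20) for *Prdx1* and 0.08 (SE 0.20) for *Txn1*, whose count is uncertain because of a pseudogene. High MMP 1 was the highest library for both, and it was also the one with the lowest share of mitochondrial transcripts, 1.265%, whose part in this was not tested.

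A list of 16 cytosolic antioxidant genes, some of which are also in the lists above, had 0 called by limma, where 0% of all genes were. At an unadjusted p under 0.05 it had 0 in limma, 0 in edgeR and 1 in DESeq2 (*Txnip*), where 9.96%, 7.05% and 3.27% of all genes were. High MMP 2 and low MMP 1 were on 1 side for 13 of the 16, below for 12, beside the same 41.9% and 21.7%, with the same limit. *Txnip*, which binds and inhibits thioredoxin, had 534 and 332 normalized reads in high MMP and 598 and 678 in low MMP libraries, a difference of -0.59 (SE 0.26, limma adjusted p = 0.576). *Sesn1*, a sestrin induced by p53, had 177 and 175 against 205 and 243, a difference of -0.34 (SE 0.14, limma adjusted p = 0.537). *Sesn3*, another sestrin, differed by 0.12. The median of the list was 0.09.

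**Figure D4:**
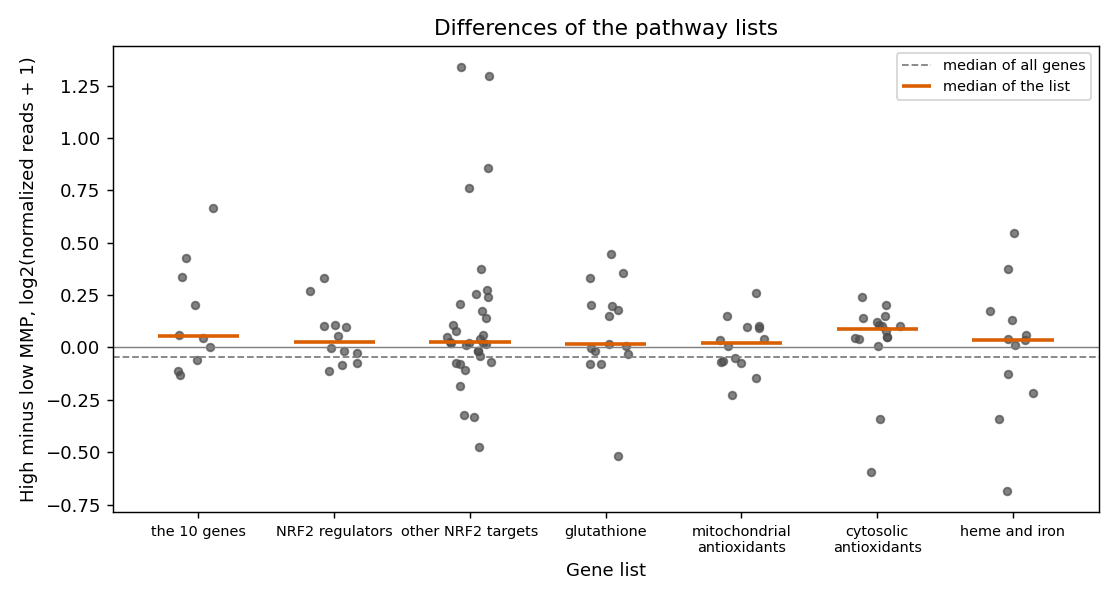
High minus low MMP difference (log2(normalized reads + 1) scale) of each measured gene in the 10 genes and the 6 pathway lists, with the median of each list (orange) and of all 20197 genes (dashed). The medians of the lists lie between 0.02 and 0.09, beside -0.04 for all genes.

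Over the 88 different genes of the 6 pathway lists that were in the table, limma called 0, with 6 higher and 2 lower at an unadjusted p under 0.05, where 3.95% and 6.01% of all genes were. Without *Gsta2* and the other gene whose mean was under 1, 5 of 86 were higher and 2 lower. edgeR and DESeq2 on whole reads called 0 of the 88 as well, with 10 at an unadjusted p under 0.05 in each, beside 7.05% of all genes in edgeR and 3.27% in DESeq2. In 20 of the 86 whose mean reached 1, both high MMP libraries lay above both low MMP libraries, against 13.8% of all genes, and in 8 they lay below, against 24.3%.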

How the data were processed

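The authors aligned reads to the mouse transcriptome (GRCm38, mm10) with STAR and obtained 1 value per gene. HTSeq is also among the tools in the submitters' processing notes. The deposited values are a signal per gene: reads divided by the library total, with genes kept when found in at least 2 of the 4 libraries. Tool versions, annotation release, strand setting and handling of multi-mapping reads are not given in the sources used here. Each library sums to 20000000, and 100.0% of values were whole multiples (within 0.1) of 1 step, which recovered whole reads.

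Identifiers were matched to GENCODE M21 (19993 of 20197). Values were compared as log2(value + 1) with limma 3.58.1 (R 4.3.3, trend on mean expression, no covariate), with Benjamini-Hochberg adjustment across the whole table and 0.05 as cutoff. Fold changes of low genes are understated on this scale. edgeR 4.0.16 and DESeq2 1.42.0 were run on the whole reads. Scripts were tested on simulated data. From each pathway list, the 3 genes of smallest raw p with a mean of at least 10 were named, besides 12 central genes of the pathway. The 10 genes and the lists were chosen with earlier results of these data known. 0 columns belonged to no sample.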

Additional observations from a re-analysis of the deposited data

How the results depend on the processing

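The 10 genes were refitted under 15 alternatives, and none was called in any, the smallest adjusted p being 0.188 (*Nqo1*, edgeR with the replicate block). Same-numbered libraries did not deviate together (correlation -0.421 across 12902 genes with a mean of at least 10), so the labelled numbers were not used to pair them. Whether differently numbered libraries share an experiment is not given in the labels. With the replicate block, limma called 0 genes and edgeR 106, and 0 of the 10 genes in both. DESeq2 called 118 genes. With the crossed pairing as a block, chosen after seeing the data, limma called 0 genes and edgeR 733 (3.63%), among them 3 of the 10 genes and 7 of the 88 in the pathway lists. The count of 0 called in each list held in the 15 alternatives, and 3 genes had groups that do not overlap under each scaling. The filters on the mean could not change this, since all 10 genes had means far above them.

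Scaling, pseudocount and tool turned the direction of none of the 10 genes, and the filters could not. Leaving out 1 library did for 6. The differences then ranged from -0.22 to 0.0010 for *Nfe2l2*, -0.11 to 0.20 for *Gclc*, -0.026 to 0.15 for *Gclm*, -0.18 to 0.060 for *Srxn1*, -0.020 to 0.69 for *Slc7a11* and -0.059 to 0.067 for *Sod2*. *Hmox1*, *Nqo1*, *Txnrd1* and *Prdx3* kept their direction, over 0.20 to 0.66, 0.18 to 1.15, 0.19 to 0.22 and -0.26 to -0.0098. Where a group is left with 1 library, it is assumed to vary like the other group. Depth limits what can be detected for genes with few reads, such as *Nnt*.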
